A study of Mus musculus with 5 samples.

Results

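Genes of heart muscle cells, 10 in all, were followed in RNA of CD31-positive cells from infarcted mouse hearts, to see whether genes of the atria and genes of the ventricles behaved alike when Tbx1 was deleted. The members are 10 of the 17638 genes measured, and all 10 passed the filter on low values that left 14339 genes. They are the atrial genes Myl7, Sln, Nppa and Myl4, the ventricular genes Myl2 and Myh7, the genes Myh6, Tnnt2 and Actc1 of both chambers, and the stress gene Nppb. Members were chosen by gene symbol with earlier results of these data known, and Myl7 and Sln were picked because their values were low in the knockout. For Myl7 and Sln the difference between the genotypes is therefore given as a description, with no test. Both passed the filter, a mean of 10 normalised reads, through the controls, since their Tbx1cko means were 9.62 and 2.29.

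The study sequenced polyadenylated RNA from cells labelled as CD31-positive endothelial cells, 5 days after myocardial infarction, in mice 2 months old on a C57BL/6 background. There were 3 libraries from controls and 2 from Tbx1cko, a conditional knockout that the series calls endothelial. Both groups had an infarct. The labels name neither the Cre driver, nor the alleles carried by the controls, nor the chambers of the heart from which cells were taken. Nothing in them ties each library to its own animal, and p-values therefore reflect the variation among these 5 libraries alone, which may be technical.

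Atrial and ventricular heart muscle cells build the same contractile machine from partly different parts. The myosin motor binds an essential and a regulatory light chain, and each chamber has its own set. In the adult mouse Myl7 and Myl4 encode the atrial regulatory and essential chains, Myl2 encodes the ventricular regulatory chain, and sarcolipin (Sln) restrains the calcium pump of the sarcoplasmic reticulum mainly in the atria. Endothelial cells are not known to need these proteins. In bulk RNA, fewer cells of a type and less RNA per cell cannot be told apart.

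Library depth was 14689782 to 18617284 recovered reads. Endothelial markers were abundant, with a median log2 difference of -0.27 (-0.09 without control replicate 2, described next), and all 10 of the endothelial list were tested, with a summed normalised count of 173057 to 233676 in controls and 159001 to 167626 in Tbx1cko. Tbx1 itself had 64.4, 72.7 and 69.6 normalised reads over the controls against 18.3 and 17.3 in Tbx1cko, in the direction of the labels. Control replicate 2 stood apart. Across genes its log2 values correlated with those of the other libraries at 0.859 to 0.889, against 0.98 to 0.988 among the other 4, and its deviation from controls 1 and 3 followed GC content with a Spearman rho of 0.794 across genes, which are not independent replicates. The log2 difference of each member and the median of each gene list are given below with and without it.

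The regulatory DNA just before the transcription start is shown for 4 members, chosen because Myl7 and Myl4 were the atrial light chains with low Tbx1cko values, Nppa is the atrial gene whose groups overlapped, and Actc1 is a gene of both chambers whose groups overlapped. Each run is 200 bases ending at the base before a start listed by RefSeq on GRCm38.p6, written 5′ to 3′ on the strand of the gene, and capitals mark matches to the motifs named below. The Myl7 window is chr11:5898783-5898982 on the minus strand, the Myl4 window chr11:104550463-104550662 on the plus strand, the Nppa window chr4:148000522-148000721 on the plus strand and the Actc1 window chr2:114052876-114053075 on the minus strand.
Myl7: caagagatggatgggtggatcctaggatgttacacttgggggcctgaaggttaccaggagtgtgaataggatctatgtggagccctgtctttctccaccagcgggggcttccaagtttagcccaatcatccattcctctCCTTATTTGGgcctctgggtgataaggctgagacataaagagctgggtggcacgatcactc
Myl4: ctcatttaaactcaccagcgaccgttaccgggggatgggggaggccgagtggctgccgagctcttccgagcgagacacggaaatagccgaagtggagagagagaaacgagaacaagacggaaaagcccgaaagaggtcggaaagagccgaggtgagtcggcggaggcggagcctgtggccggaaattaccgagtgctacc
Nppa: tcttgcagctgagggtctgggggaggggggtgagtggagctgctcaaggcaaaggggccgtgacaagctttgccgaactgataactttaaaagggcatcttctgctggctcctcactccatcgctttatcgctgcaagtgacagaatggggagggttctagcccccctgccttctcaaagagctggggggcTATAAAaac
Actc1: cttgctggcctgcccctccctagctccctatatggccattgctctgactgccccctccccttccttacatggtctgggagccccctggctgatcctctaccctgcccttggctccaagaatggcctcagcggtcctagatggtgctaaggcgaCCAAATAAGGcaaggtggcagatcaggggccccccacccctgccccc

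RefSeq promoters were matched by symbol for 9 members, in 12 windows because some genes have a pair of starts, and there was none for Sln. The motifs searched on both strands were the CArG box bound by serum response factor, the MEF2 site, AGGTGT as an element read by T-box factors, AGATAA as one read by GATA factors, TNAAGTG as one read by Nkx2-5, and TATAAA of the core promoter. Myl7 and Actc1 both held a CArG box, 61 to 52 bases before the start in Myl7 and 47 to 38 in Actc1, and each match reads as a CArG box on either strand. Over all 32851 promoter windows of this length 1.18% held one. Whether the motif bears on the counts of either gene was not tested. The core promoter motif stood in Nppa and Nppb (9.96% of all windows), AGATAA in Tnnt2 and Nppb (7.8%) and TNAAGTG in Myh7 (7.99%). Only the forms named above were searched, so variants such as TGATAA in the Myl7 and Nppa windows are not marked. No member window held the T-box element (9.32% of all windows) or the MEF2 site (2.29%), and no matches to different motifs overlapped. This covers the RefSeq starts only. On chromosome 5 the Myl2 windows end at 122092723 and 122093188, while the GENCODE gene begins at 122100951. The Actc1 window shown lies inside the GENCODE gene, which begins at 114053548 on the minus strand. The Myh6 window and the downstream Tnnt2 window also lie inside their genes. The Nppb window and the downstream Myh7 window run past the GENCODE start. The bases just before the GENCODE starts of Myl2, Actc1 and Myh6 were therefore not searched. A match is a description of letters, not a measured binding site.

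In GRCm38, by the GENCODE M21 annotation, Myl7 (ENSMUSG00000020469.8) spans 5896637 to 5898782 on the minus strand of chromosome 11, and Myl4 (ENSMUSG00000061086.12) spans 104550663 to 104595753 on the plus strand of the same chromosome. Sln (ENSMUSG00000042045.6) lies on chromosome 9 from 53850164 to 53854560. Myl2 (ENSMUSG00000013936.12) lies on chromosome 5 from 122100951 to 122113472. The natriuretic peptide genes are neighbours on chromosome 4, Nppb from 147985788 to 147987205 and Nppa from 148000722 to 148002079. The myosin heavy chain genes are also neighbours, on the minus strand of chromosome 14, Myh6 from 54941921 to 54966927 and Myh7 from 54970684 to 54994626. All 10 are protein-coding. Because the strand setting of the counting is not stated, reads of antisense genes may be included where exons overlap. That concerns Nppa (532 bases shared with Gm13054) and Myh7 (463 with Mhrt, 523 with Gm31251 and 142 with Gm29015) most, then Myh6 (114 with Gm49130) and Myl2 (60 with Ccdc63). Reads of the near-identical pairs Myh6 and Myh7, and Actc1 and Acta1, may be split in ways that the counts do not show.

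The regulatory light chain of the atria, Myl7, had 72.3, 320.1 and 53.6 normalised reads over the controls (replicates 1, 2 and 3) against 10.1 and 9.2 in the Tbx1cko libraries. All controls lay above both Tbx1cko libraries, and control replicate 2 lay far above the other controls. Myl7 averaged 148.7 ± 148.7 (SD, n = 3) and 9.62 ± 0.629 (SD, n = 2), a ratio of 15.5, or 6.55 without control replicate 2. The recovered reads behind the Tbx1cko values were 11 (exact Poisson 95% interval 5.49 to 19.7) and 9 (4.12 to 17.1), and these intervals cover counting error only. The log2 difference of Myl7 was -3.36 (SE 0.811) on log2(normalised count + 1), and it was -2.58 without control replicate 2.

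Sarcolipin had 31.6, 91.1 and 8.5 normalised reads over the controls against 4.6 and 0 in Tbx1cko. Control replicate 3, at 9 recovered reads (interval 4.12 to 17.1), lay close to Tbx1cko replicate 1, at 5 reads (1.62 to 11.7), and their intervals overlap. The 0 reads of Tbx1cko replicate 2 allow up to 3 reads by the rule of 3 counts, or a normalised count of 3.06, and the exact interval used for the other libraries runs from 0 to 3.69 reads. Sln had means of 43.7 ± 42.6 (SD, n = 3) and 2.29 ± 3.23 (SD, n = 2), with a log2 difference of -3.69 (SE 1.21), or -2.90 without control replicate 2. Its fold change rests on few reads and on the pseudocount of 1.

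The essential light chain of the atria, Myl4, was not picked for its values, though the members were chosen with earlier results known. It had 109.6, 518.8 and 137.4 normalised reads over the controls against 54.9 and 51.0 in Tbx1cko. Every control was above both Tbx1cko libraries, and control replicate 2 was again the highest. Myl4 averaged 255.3 ± 228.6 (SD, n = 3) and 52.9 ± 2.77 (SD, n = 2), a ratio of 4.82. The log2 difference was -1.89 (SE 0.707), which did not pass in limma (adjusted p = 0.762 over all genes, unadjusted p = 0.0405). Without control replicate 2 the ratio was 2.33, the log2 difference -1.20 and the limma adjusted p 0.212, while DESeq2 without that library gave an adjusted p of 0.0705.

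Nppa encodes atrial natriuretic peptide, a hormone that atrial cells release on stretch and that stressed ventricles also make. It had 18.1, 35.0 and 21.6 normalised reads over the controls against 20.1 and 7.1 in Tbx1cko. The groups overlapped, since Tbx1cko replicate 1 lay above control replicate 1. The log2 difference was -0.93 (SE 0.584, limma adjusted p = 0.762), or -0.67 without control replicate 2. Nppb encodes the related B-type peptide, which rises in stretched or injured ventricle. It had 31.6, 40.5 and 41.4 normalised reads over the controls against 28.4 and 17.3 in Tbx1cko, so that its groups did not overlap. The highest Tbx1cko value of Nppb was 31 recovered reads (exact Poisson interval 21.1 to 44.0) and its lowest control was 28 (18.6 to 40.5), so the gap between the groups is within counting error. The log2 difference was -0.73 (SE 0.383, limma adjusted p = 0.762), or -0.68 without control replicate 2.

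**Figure D1:**
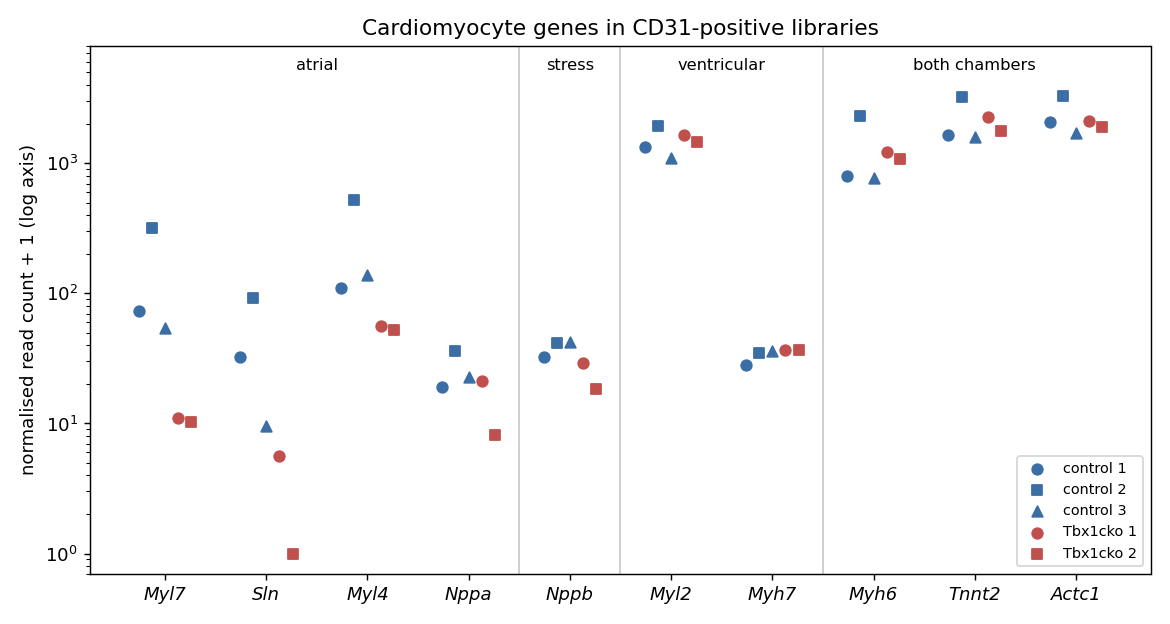
Normalised read count + 1 (vertical log axis) of the 10 genes in each library, with controls in blue and Tbx1cko in red. Myl7, Sln and Myl4 are lower in both Tbx1cko libraries than in any control, while Myl2, Myh6, Tnnt2 and Actc1 of Tbx1cko lie within the range of the controls.

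The ventricular regulatory light chain, Myl2, was not lower in Tbx1cko. It had 1337.8, 1927.9 and 1099.0 normalised reads over the controls against 1658.2 and 1463.4 in Tbx1cko, with both Tbx1cko values inside the control range. Myl2 averaged 1454.9 ± 426.7 (SD, n = 3) and 1560.8 ± 137.7 (SD, n = 2), and the log2 difference was 0.14 (SE 0.289, limma adjusted p = 0.846). Without control replicate 2 both Tbx1cko libraries were above both controls, at a log2 difference of 0.36 (limma adjusted p = 0.573).

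Myh7, the slow myosin heavy chain that the adult mouse ventricle keeps at a low level, had 27.1, 34 and 34.8 normalised reads over the controls against 35.7 and 35.7 in Tbx1cko. The Tbx1cko values were above all controls by a margin of less than 1 normalised read over control replicate 3, far inside the counting error of 37 reads (26.1 to 51.0). The log2 difference was 0.16 (SE 0.324, limma adjusted p = 0.842), or 0.21 without control replicate 2.

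The 3 genes of both chambers had log2 differences of -0.18 to 0.02 with all libraries and of 0.09 to 0.54 without control replicate 2. Myh6, the main myosin motor of the adult mouse heart, had 801.1, 2327.1 and 773.5 normalised reads over the controls against 1221.9 and 1074.1 in Tbx1cko. Its log2 difference was 0.02 (SE 0.531, limma adjusted p = 0.988), or 0.54 (limma adjusted p = 0.279) without control replicate 2, whose value was 2.96 times the mean of the other controls. Tnnt2, cardiac troponin T of the thin filament, had 1655.3, 3248.8 and 1596.8 in the controls against 2290.2 and 1771.1 in Tbx1cko. The log2 difference of -0.02 (SE 0.374, limma adjusted p = 0.982) turned to 0.31 without control replicate 2. Actc1, the cardiac alpha actin, had 2068.8, 3304.9 and 1719.1 in the controls against 2112.7 and 1915.9 in Tbx1cko, with a log2 difference of -0.18 (SE 0.318, limma adjusted p = 0.822) that was 0.09 without control replicate 2. For all 3 genes the Tbx1cko libraries lay between the lowest and the highest control.

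None of the 8 members that were not picked for their values passed the limma threshold of 0.05, where 0% of the 14339 genes tested did, and 1 of the 8, Myl4, had an unadjusted p under 0.05, against 1.74% of all genes in either direction and 1.37% in its own, lower direction. On the recovered reads edgeR called 0 of the 8, and so did DESeq2, which called 0.0279% of all genes. These counts of 0 carry little weight. On simulated counts with the spread of these 5 libraries limma and edgeR recovered none of the genes that had been changed. Many of the calls DESeq2 made there were of unchanged genes. The simulation gave every library the same spread, so it does not mirror data in which control replicate 2 stood apart. The groups did not overlap for 2 of the 8 on the lower side, Myl4 and Nppb, where 13.9% of all genes were lower without overlap, and for 1 on the higher side, Myh7, against 14.2%. Without control replicate 2 they were lower without overlap for 2 of 8 (17.7% of all genes) and higher for 4 of 8 (19.7% of all genes), namely Myl2, Myh7, Myh6 and Tnnt2. limma without that library still called 0 of the 8, where it called 0.0209% of all genes, and DESeq2 without it called 0 of the 8 and 0.46% of all genes. In limma without it there were 4 of the 8 at an unadjusted p under 0.05, against 7.42% of all genes. They were Myl4 on the lower side and Myl2, Myh6 and Tnnt2 on the higher side.

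**Figure D2:**
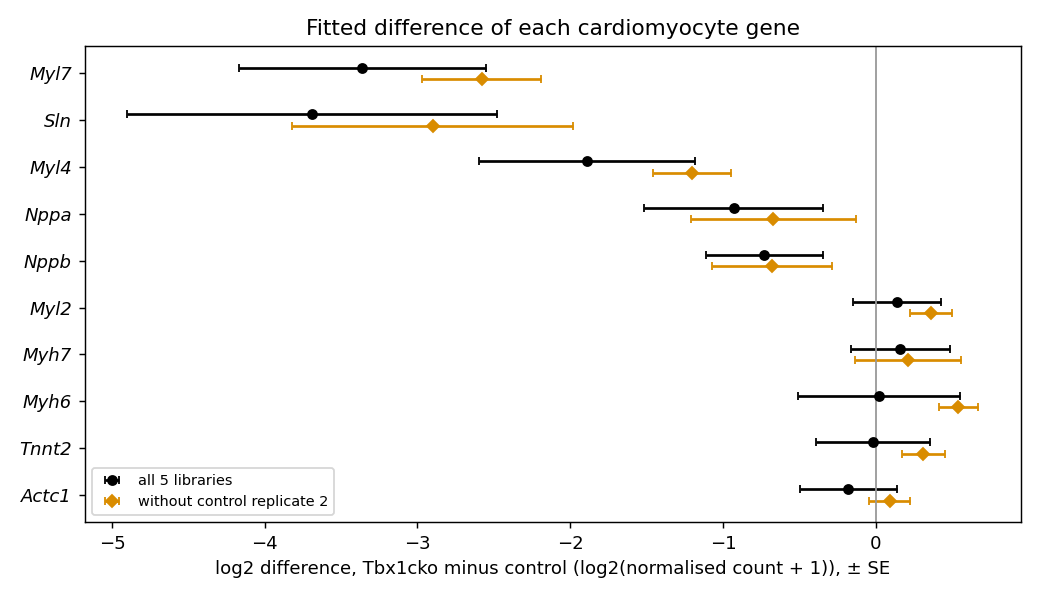
Fitted log2 difference of each gene (horizontal axis, Tbx1cko minus control, on log2(normalised count + 1)), with its SE as a bar, for all 5 libraries (black) and without control replicate 2 (orange). The 4 atrial genes and Nppb lie left of 0 in both fits, and the 5 ventricular and shared genes lie between -0.18 and 0.54.

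Levels of different genes were compared as RPKM, the recovered reads scaled to exon length and library total. In the controls the order ran from Tnnt2 (102 ± 41.6, SD, n = 3) through Actc1 (95.7 ± 31.3) and Myl2 (69.9 ± 18.7) down to Myl7 (14.9 ± 14.6), Myh6 (12.6 ± 8.32) and Myl4 (12.6 ± 11). Tnnt2 and Actc1 each lay above Myl2, and Myl2 above Myl7, in each of the 5 libraries. The order of Tnnt2 and Actc1 changed between controls, as did that of Myl7, Myh6 and Myl4. Nppb (2.91 ± 0.418), Sln (1.96 ± 1.87), Nppa (1.72 ± 0.573) and Myh7 (0.304 ± 0.0407) followed. In Tbx1cko the leading genes kept this order, with Tnnt2 at 98.6 ± 18.3 (SD, n = 2), Actc1 at 83.9 ± 6.22, Myl2 at 77.0 ± 7.18 and Myh6 at 11.5 ± 1.11. Below them Myl4 stood at 2.70 ± 0.155 and Myl7 at 0.999 ± 0.0703, level with Nppa at 0.968 ± 0.656. The 10 genes together took 0.0336% to 0.0692% of the recovered reads of a library.

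A ratio of 2 genes within a library does not depend on how deeply that library was sequenced. It can still depend on GC content. Across genes the log2 difference between the genotypes followed GC content with a Spearman rho of -0.713, with all 5 libraries. The GC content is 54.9% for Myl7, 51.6% for Myl4, 55.3% for Nppa and 47.0% for Sln, against 50.3% for Myl2. The ratios were not corrected for this. Per length, Myl7 stood at 11.4%, 35.0% and 10.3% of Myl2 in the controls and at 1.28% and 1.32% in Tbx1cko, with means of 18.9 ± 14% (SD, n = 3) and 1.30 ± 0.0298% (SD, n = 2). The ratio of these means was 14.5, or 8.34 without control replicate 2. This ratio uses Myl7, which was picked for low Tbx1cko values, so its size is a description. Myl4 stood at 8.47%, 27.8% and 12.9% of Myl2 in the controls and at 3.42% and 3.6% in Tbx1cko, with every control above both Tbx1cko libraries. Nppa stood at 1.94%, 2.61% and 2.83% of Myl2 in the controls and at 1.74% and 0.7% in Tbx1cko, so that groups that overlapped in the counts no longer overlapped as shares of Myl2, though control replicate 1 and Tbx1cko replicate 1 rest on 16 and 22 Nppa reads. Sln stood at 2.23%, 4.45% and 0.727% of Myl2 in the controls and at 0.26% and 0% in Tbx1cko.

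The same picture held against the mean of Myh6, Tnnt2 and Actc1. Per length, Myl4 stood at 9.61%, 24.9% and 13.4% of that mean in the controls and at 3.97% and 4.42% in Tbx1cko. Shared genes kept a steadier proportion to Myl2. Myh6 stood at 12.2%, 24.5% and 14.3% of Myl2 in the controls and at 15.0% and 14.9% in Tbx1cko, and Tnnt2 at 122% to 166% in the controls and at 136% and 119% in Tbx1cko. Actc1 stood at 130% to 145% of Myl2 in the controls and at 108% and 110% in Tbx1cko, the only shared gene whose share of Myl2 did not overlap between the groups. Myh7 stood at 3.28%, 1.42% and 4.36% of Myh6 in the controls and at 2.83% and 3.22% in Tbx1cko, within the control range.

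**Figure D3:**
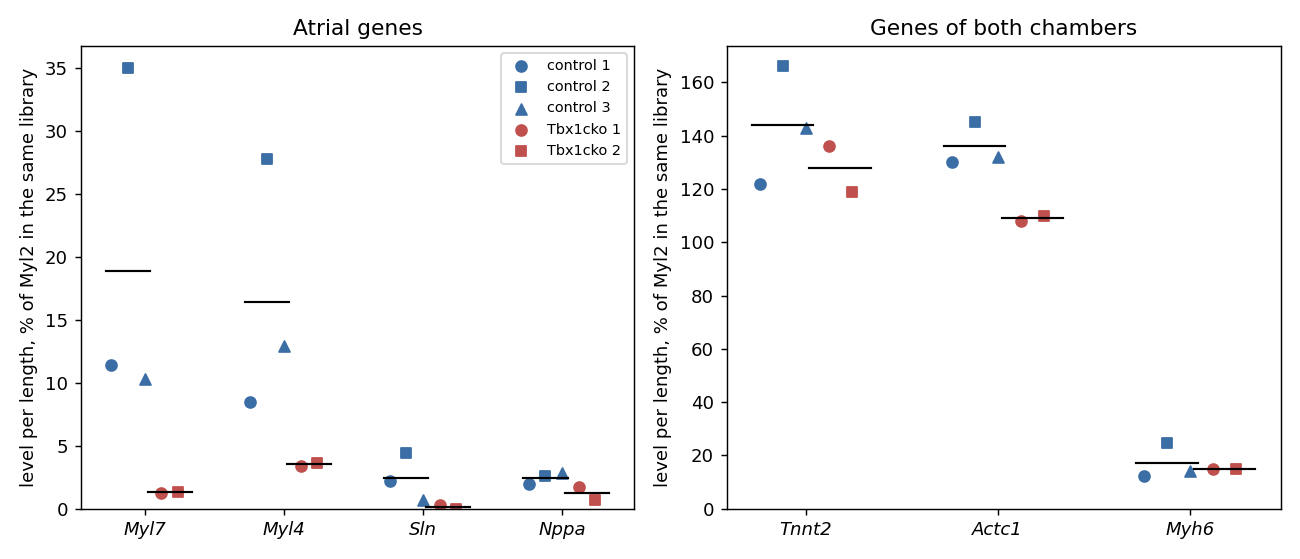
Level per length of atrial genes (left) and of genes of both chambers (right) as a percent of Myl2 in the same library (vertical axes), controls in blue, Tbx1cko in red, with group means as lines. Myl7 lies at 10.3% or more of Myl2 in the controls and at 1.32% or less in Tbx1cko, while Myh6 lies at 15.0% and 14.9% in Tbx1cko, inside the control range.

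Per length, Myl7 stood at 134%, 126% and 79.5% of Myl4 in the controls and at 37.4% and 36.7% in Tbx1cko. Myl7 was picked for low Tbx1cko values and Myl4 was not, so the lower share in Tbx1cko is a description. How far the choice accounts for it was not tested. Sln stood at 19.6%, 12.7% and 7.07% of Myl7 in the controls and at 20.3% and 0% in Tbx1cko, an overlap set by few reads. Nppa stood at 51.6%, 78.0% and 47.2% of Nppb in the controls and at 64.1% and 37.2% in Tbx1cko, also overlapping.

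Averaged over the 4 atrial genes, the log2 level was 5.57, 7.26 and 5.16 in the controls against 4.04 and 3.02 in Tbx1cko. Averaged over Myl2 and Myh7 it was 7.60, 8.02 and 7.63 in the controls against 7.95 and 7.86 in Tbx1cko. The atrial mean minus the ventricular mean was -2.03, -0.76 and -2.48 in the controls and -3.91 and -4.84 in Tbx1cko. The genotypes thus differed by -2.62 in this measure, against a control SD of 0.89, and by -2.12 without control replicate 2. Since 2 of its 4 atrial genes were picked for low Tbx1cko values, the value has no test.

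In control replicate 2, the library that stood apart, Myl7, Sln and Myl4 were higher than genes of like GC content by more than the other members were. The log2 value of Myl7 there exceeded the mean of controls 1 and 3 by 2.34, where 1338 genes within 1 percent of its GC content (54.9%) had a median excess of 0.54. For Myl4 the excess was 2.07 against a median of 0.29, and for Sln it was 2.39 against -0.41. Myh6 had an excess of 1.56 against 0.62, Tnnt2 1.0 against 0.19 and Myl2 0.67 against 0.13. Nppa, the other atrial gene, had an excess of 0.79 against 0.55, close to genes of like GC content, and Myh7 had 0.14 against 0.61. Actc1 had 0.81 against 0.37 and Nppb 0.16 against -0.22. Among controls 1 and 3 alone, the 4 atrial genes took 3.76% and 4.03% of the reads of the 10 members, against 8.14% in control replicate 2 and 1.21% and 1.06% in Tbx1cko.

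Other atrial genes were mostly too low to test. Of a list of 9, 3 were tested, and 0 passed in limma, edgeR and DESeq2, with 0 at an unadjusted p under 0.05 in limma. The median log2 difference of the 3 was -0.87, which is the value of Kcnj5, a gene that passed the filter only with control replicate 2 included. That of the 2 still tested without control replicate 2 was -0.08. With no filter and all 5 libraries the median over the genes of the list that were measured was also -0.08. Stard10, a lipid transfer protein gene, had 56.5, 175.7 and 57.4 normalised reads over the controls against 47.6 and 27.5 in Tbx1cko. It was lower without overlap, 1 of the 3 tested, where 13.9% of all genes were. Its log2 difference was -1.18 (limma adjusted p = 0.762), or -0.64 without control replicate 2. Kcnj5, a subunit of the acetylcholine-gated potassium channel, had 10.2, 32.2 and 11.3 in the controls against 6.4 and 10.2 in Tbx1cko. Kcna5, a potassium channel gene placed on this list, had 1879.0 to 3376.6 in the controls against 2685.3 and 3121.4 in Tbx1cko. Its log2 difference was 0.25, or 0.48 without control replicate 2, in the other direction from Myl7. Its counts were well above those of Myl7, and which cells they came from was not tested. The median of -0.08 without control replicate 2 rests on Stard10 and Kcna5 alone. The other 4 genes measured did not pass the filter on low values and are named here after their values were seen. Mybphl, a myosin-binding protein of the atria, had 10.2, 24.8 and 3.8 in the controls against 1.8 and 2.0 in Tbx1cko, lower without overlap. Control replicate 3 held 4 recovered reads of Mybphl against 2 and 2 in Tbx1cko, so that gap rests on few reads. The other 3 overlapped: Kcnj3 had 5.6, 0 and 5.6 and then 2.7 and 4.1, Tbx5 had 7.9, 10.1 and 4.7 and then 5.5 and 9.2, and Sbk2 had 6.8, 6.4 and 4.7 and then 3.7 and 8.2.

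Genes of the contractile apparatus outside the members lay on both sides of 0, from -1.24 (Xirp1) to 1.36 (Xirp2). Of 20 sarcomere genes, all tested, 12 had a log2 difference above 0 and 8 below, with a median of 0.11 beside 0.03 over all genes, and 0 passed in limma (2 at an unadjusted p under 0.05), edgeR or DESeq2. The groups did not overlap for 5 of 20 on the higher side and 2 of 20 on the lower side, against 14.2% and 13.9% of all genes. Without control replicate 2 these counts were 12 and 2 of 20, against 19.7% and 17.7% of all genes, 16 of the 20 were above 0 and the median was 0.34 beside 0.02 over all genes. Tpm1, a tropomyosin that many cells make, had 6902.6, 8794.4 and 7206.6 normalised reads over the controls against 8185.8 and 6436.4 in Tbx1cko. Tnni3, cardiac troponin I, had 618.1, 1603.2 and 618.2 in the controls against 789.3 and 744.9 in Tbx1cko. Tnnc1, cardiac troponin C, had 507.3, 781.8 and 416.8 and then 636.6 and 528.9. In all 3 the Tbx1cko values overlapped the controls, and the limma adjusted p of each was 0.9 or more. Without control replicate 2 the log2 differences were 0.04 for Tpm1, 0.31 for Tnni3 and 0.33 for Tnnc1.

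Other ventricular genes were not lower as a set. Of a list of 7, 5 were tested, 3 above 0 and 2 below, with a median log2 difference of 0.01 (0.27 without control replicate 2), and 0 passed in limma, edgeR or DESeq2, nor had any an unadjusted p under 0.05 in limma. Myl3, the ventricular essential light chain and counterpart of Myl4, had 892.6, 1632.7 and 756.5 normalised reads over the controls against 1101.2 and 1058.8 in Tbx1cko, with a log2 difference of 0.06 (limma adjusted p = 0.947). Both light chains of the ventricle thus lay within the range of the 3 controls, but without control replicate 2 both were higher in Tbx1cko without overlap, Myl2 at 0.36 and Myl3 at 0.39. Fhl2, a LIM protein of the sarcomere, had 428.2, 757.9 and 465.8 and then 554.3 and 520.7. The 2 below 0, named after their values were seen, were Irx5 at -0.55 and Hey2 at -0.27 (-0.56 and -0.38 without control replicate 2). Irx5 was lower without overlap, 1 of 5, and 1 of 5 was higher, against 13.9% and 14.2% of all genes. Without control replicate 2 both Irx5 and Hey2 were lower without overlap, 2 of 5, where 17.7% of all genes were. Higher without overlap were 3 of 5, against 19.7%.

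Among the calcium pump and its small inhibitors, phospholamban (Pln), the ventricular counterpart of sarcolipin, had 1303.9, 469.1 and 1262.7 normalised reads over the controls against 1619.8 and 1800.7 in Tbx1cko. Pln was thus higher without overlap where Sln was lower, with a log2 difference of 0.90 (limma adjusted p = 0.762) that was 0.41 without control replicate 2. The pump gene Atp2a2 had 5147.8, 4669.9 and 5039.7 in the controls against 4691.0 and 4812.1 in Tbx1cko, overlapping, and Atp2a3, a pump of endothelial and blood cells, 1454.2, 3122.8 and 1304.1 and then 1093.9 and 1188.2, lower without overlap at -0.67 (limma adjusted p = 0.762), or -0.27 without control replicate 2. The list had a median of -0.06, or -0.10 without that library. Of the 6 genes of this list 3 were tested and 0 passed in limma, edgeR or DESeq2, with 0 at an unadjusted p under 0.05 in limma. Higher without overlap was 1 of 3 and lower 1 of 3, against 14.2% and 13.9% of all genes. Without control replicate 2 these counts were 1 and 2 of 3, against 19.7% and 17.7%.

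Of 12 genes for calcium handling and excitation, all tested, 5 had a log2 difference above 0 and 7 below, with a median of -0.15 (-0.03 without control replicate 2). The gene Casq2, for the calcium store protein calsequestrin, had 703.9, 488.4 and 593.7 in the controls against 543.3 and 450.4 in Tbx1cko. Of 9 muscle energy genes, 2 were above 0 and 7 below, with a median of -0.16 that became 0.15, with 8 of 9 above 0, without control replicate 2. Myoglobin (Mb) had 1922.0, 4065.6 and 1572.3 in the controls against 2423.7 and 2006.6 in Tbx1cko. The fatty acid binding protein gene Fabp3 had 458.7, 1010.0 and 326.5 and then 636.6 and 587.0, and the enolase gene Eno3 318.6, 518.8 and 225.8 and then 318.3 and 280.2. In these 3 the 2 Tbx1cko values lay between the lowest and the highest control. By limma, edgeR and DESeq2, 0 genes of either list passed, with 1 and 0 at an unadjusted p under 0.05 in limma.

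**Figure D4:**
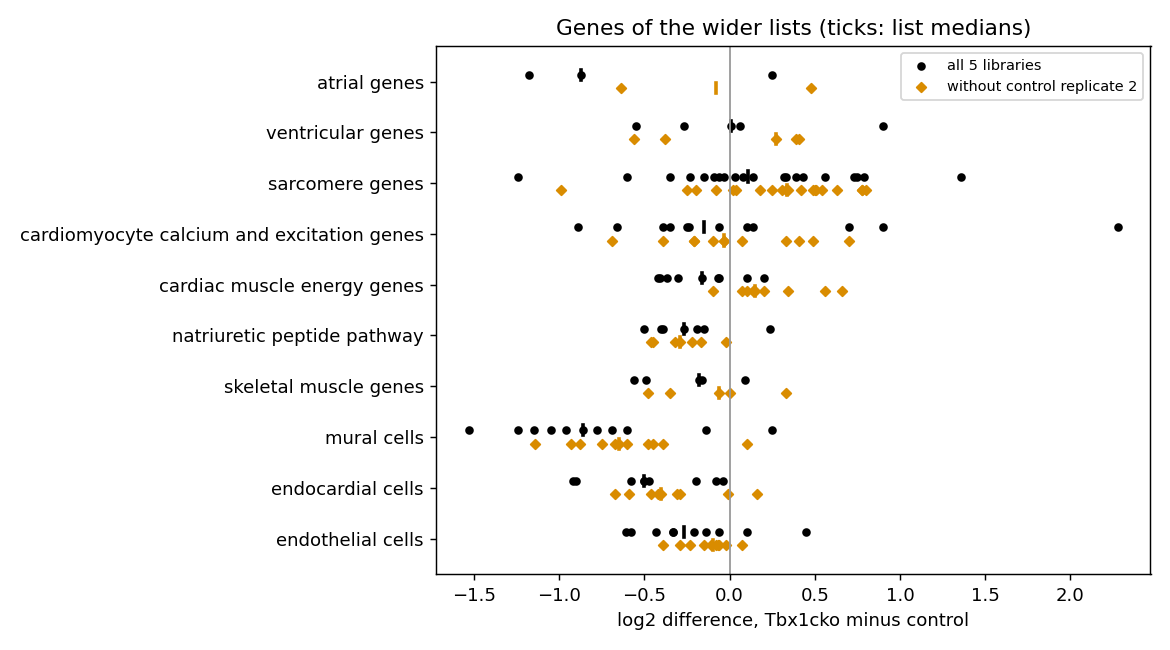
Log2 difference (horizontal axis, Tbx1cko minus control) of each tested gene of 10 lists, with all 5 libraries (black) and without control replicate 2 (orange), and list medians as ticks. The sarcomere median is 0.11 and then 0.34, and the mural median -0.86 and then -0.65.

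Of the receptors and processing enzymes of the natriuretic peptides, Npr1, Npr2 and Furin had the highest counts, while the protease gene Corin, named after its values were seen, had 49.7, 37.7 and 43.3 normalised reads in controls against 43.9 and 32.6 in Tbx1cko. Of 9 genes 7 were tested, 6 below 0 and 1 above, with a median log2 difference of -0.27, and 0 passed in limma, edgeR or DESeq2 (0 at an unadjusted p under 0.05 in limma). Npr1, the receptor of both peptides, had 3524.2, 5046.1 and 2947.0 normalised reads over the controls against 2759.4 and 2964.5 in Tbx1cko, overlapping. Npr2, the receptor of the C-type peptide, had 2153.6, 3366.5 and 1856.5 and then 1781.7 and 2197.1. Furin, a protease that cleaves peptide precursors, had 4612.2, 6367.9 and 4052.6 and then 3653.0 and 3790.9, lower without overlap at a log2 difference of -0.40 (limma adjusted p = 0.762), or -0.22 without control replicate 2. Lower without overlap was 1 of 7, against 13.9% of all genes, and 3 of 7 without control replicate 2, against 17.7%. Without that library all 7 were below 0, with a median of -0.29.

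Of 9 cardiac transcription factors 8 were tested, 4 above 0 and 4 below, with a median log2 difference of 0.02 (-0.12 without control replicate 2), and 0 passed in limma, edgeR or DESeq2 (0 at an unadjusted p under 0.05 in limma). Srf, which encodes serum response factor, had 2680.1, 3383.1 and 2246.0 normalised reads over the controls against 2142.0 and 1767.1 in Tbx1cko. It was lower without overlap at -0.49 (limma adjusted p = 0.762), or -0.33 without control replicate 2. So were Gata4 at -0.92 and Myocd at -0.87 (-0.59 and -0.61 without it), named after their values were seen. Lower without overlap were 3 of 8, against 13.9% of all genes, and higher 0 of 8, against 14.2%. Without control replicate 2 these counts were 4 and 1 of 8, against 17.7% and 19.7%. Mef2a had 4761.4, 2099.9 and 5721.8 and then 5302.9 and 5213.6, and Mef2c 3253.0, 1154.4 and 3422.2 and then 2853.6 and 3153.0, both overlapping. Srf, Mef2a and Mef2c are also made by vascular cells.

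Markers of other cell types also differed in level, and their part in the atrial result was not tested. None of their genes passed in limma, edgeR or DESeq2, with 7 mural and 2 platelet genes at an unadjusted p under 0.05 in limma, and 47.6% of all genes had a log2 difference below 0. Mural cell markers had 10 of 11 genes below 0, a median log2 difference of -0.86 (-0.65 without control replicate 2) and a summed normalised count of 49933 to 61465 in controls and 40305 to 42194 in Tbx1cko. The highest of them, Rgs5, had 8734 in control replicate 2 and 23353 to 35182 in the other libraries. Endocardial markers had 9 of 9 below 0, a median of -0.50 (-0.40 without it) and a summed count of 27748 to 45470 in controls and 22870 to 23415 in Tbx1cko. Leukocyte markers had 8 of 10 above 0, a median of 0.43 (0.21 without it) and a summed count of 41838 to 70315 in controls and 67775 to 74934 in Tbx1cko, and platelet markers 4 of 6 above 0, a median of 0.17 (0.26 without it) and sums of 2273 to 3934 and 4665 to 5233. Fibroblast markers had 5 of 9 below 0 and a median of -0.01, which became 8 of 9 and -0.16 without control replicate 2, with overlapping sums of 21655 to 38141 and 19702 to 40194. No marker of these lists was at 0 in all libraries. Because sarcolipin is also a skeletal muscle gene, 12 skeletal muscle genes were read, of which 5 were tested, 4 below 0 and 1 above, with a median of -0.18 (-0.06 without it). Their highest, Acta1, which the injured heart also makes, had 248.6, 268.6 and 207.0 in the controls against 191.2 and 138.6 in Tbx1cko. Mylpf had 33.9, 95.7 and 30.1 and then 39.3 and 41.8, and Tnnt1 50.8, 49.7 and 31.1 and then 37.5 and 38.7, both overlapping. Markers of the epicardium other than Wt1 did not pass the filter.

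The pattern of Myl7 over the 5 libraries was most like those of Clec4g, Ky, Misp, Cyp26b1 and Lrrc23 among named genes outside the members. Likeness was the root mean square distance between log2 values centred on their mean over the 5 libraries, and it ran from 0.70 for Clec4g to 0.73 for Lrrc23. Myl4 was nearly as near to Myl7, at 0.76, and Sln stood at 0.88, Nppa at 1.39, Nppb at 1.54 and the ventricular and shared genes at 1.66 (Actc1) to 1.92 (Myh7). Cyp26b1, which encodes an enzyme that breaks down retinoic acid, had 293.8, 5369.9 and 318.0 normalised reads over the controls against 83.2 and 45.9 in Tbx1cko. Clec4g, a lectin of sinusoidal endothelium, had 12.4, 42.3 and 7.5 and then 4.6 and 2.0, and Ky, a muscle peptidase gene, 11.3, 39.6 and 13.2 and then 2.7 and 4.1. Nearest to Sln were Cyp26b1, Clec4g, Misp, Lrrc23 and Npas4, at 1.02 to 1.23. In all 6 of these genes control replicate 2 was the highest library and both Tbx1cko libraries were below all controls, which restates the pattern by which they were chosen. Apart from Cyp26b1 they rest on fewer than 60 normalised reads in any library.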

How the data were processed

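The authors deposited 1 signal value per gene and library, a normalised read count. Per the submitters' processing notes the tools included STAR 2.5.2b, DESeq, DESeq2 1.20.0 and R 3.5.1, on GRCm38 (mm10). For the read counter, its annotation and its strand setting, nothing was given in the sources used here. Every deposited value was a whole multiple of its library's smallest value above 0, within 0.01, so 100% of values gave whole reads.

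After a filter that kept genes averaging 10 or more normalised reads, values were fitted with limma 3.58.1 (R 4.3.3) on log2(normalised count + 1), genotype as the only term, a trended prior, 2-sided, Benjamini-Hochberg adjustment over 14339 genes and a threshold of 0.05. Fold changes on this scale understate low genes. edgeR 4.0.16 and DESeq2 1.42.0 on the recovered reads, and the settings of the closing section, were alternatives. The fits were tested on simulated counts, and every method returned the simulated fold changes with little bias. With the spread of all 5 libraries limma and edgeR called none of the changed genes. With the spread of the 4 libraries without control replicate 2 each method called most of them. Both simulations drew 3 control and 2 Tbx1cko libraries, so neither covers the fits without control replicate 2. Each gene had the same spread in every simulated library, whereas in the data control replicate 2 stood apart. GC content, exon length (union of exons) and positions came from GENCODE M21 by symbol, with 16771 of 17638 symbols matched and 96% of tested genes given a GC value. The loess span of the GC correction was 0.3.

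Members and lists were chosen with earlier results of these data known. Named genes were all members, the 3 genes of each list with the highest mean count, any list gene past the threshold and the 5 patterns nearest to Myl7 and to Sln.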

Additional observations from a re-analysis of the deposited data

How the results depend on the processing

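Over 18 alternatives the log2 difference stayed below 0 for Myl7 (-3.95 to -2.52) and Myl4 (-2.32 to -1.18). Over the 17 alternatives that could give a value it stayed below 0 for Sln (-4.93 to -2.39), Nppa (-1.62 to -0.24) and Nppb (-1.07 to -0.39), above 0 for Myh7 (0.05 to 0.43), and the atrial minus ventricular measure ran from -3.08 to -2.12. A filter at a mean of 50 removed Sln, Nppa, Nppb and Myh7, so no such measure was computed there. None of the 8 members not picked for their values was called under any alternative. Signs of genes near 0 turned. Tnnt2 was 0.00 with quantile normalisation, 0.02 with GC correction, 0.16 without Tbx1cko replicate 2 and 0.31 without control replicate 2, also in edgeR, DESeq2 or GC-corrected fits without it. Actc1 was 0.09 without control replicate 2 (0.07 in edgeR, 0.08 in DESeq2, 0.12 with GC correction). Myh6 was -0.19 in edgeR, -0.18 in DESeq2, -0.25 with the replicate block, -0.23 when control replicate 1 was left out, -0.25 for control replicate 3 and -0.07 for Tbx1cko replicate 1. Myl2 was -0.04 with the replicate block and without control replicate 3. Over the fits that left out 1 library, Tnnt2 ran from -0.21 to 0.31, Actc1 from -0.38 to 0.09, Myh6 from -0.25 to 0.54 and Myl2 from -0.04 to 0.36. The cause was not tested. The median of the joined cardiomyocyte lists was -0.06 with all libraries and ranged from -0.21 to 0.22. Genes called over the table were 0 in limma, 4 in DESeq2, 3 with the replicate block and 0 to 3 when 1 library was left out. In fits without control replicate 2 that were chosen after seeing the data, DESeq2 called 66 and edgeR 3. Deviations of same-numbered libraries from their group means correlated at -0.056 and -0.046. With 2 Tbx1cko libraries these deviations mirror each other, so the check cannot tell whether same-numbered libraries were paired. Leaving out a Tbx1cko library leaves 1, assumed to vary like the controls. Sln, Nppa, Nppb and Myh7 rest on 99 reads or fewer per library.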

Other observations

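The muscle genes below are named after their values were seen, and none passed the limma threshold. Xirp1 and Xirp2 encode related actin-binding proteins of the intercalated disc. Xirp1 had 128.8, 207.0 and 115.7 normalised reads over the controls (replicates 1, 2 and 3) against 71.3 and 52.0 in Tbx1cko, a log2 difference of -1.24 (limma adjusted p = 0.762) that was -0.99 without control replicate 2. Xirp2 had 298.3, 81.9 and 251.2 and then 525.9 and 420.9, a log2 difference of 1.36 (limma adjusted p = 0.762) that was 0.78 without control replicate 2. Smpx, a small muscle protein gene, had 67.8, 71.7 and 79.0 in the controls against 113.4 and 140.6 in Tbx1cko, at 0.79 with control replicate 2 and 0.78 without it. Cacna1c, the L-type calcium channel gene that smooth muscle also uses, had 292.6, 427.7 and 273.8 and then 167.4 and 182.4, at -0.89 with control replicate 2 and -0.69 without it. Trdn, which encodes triadin of the calcium release complex, had 0 reads in control replicate 2 and 55.4 to 89.6 normalised reads in the other 4 libraries, so that control replicate 2 was low in Trdn, Xirp2 and Pln while it was high in Myl7, Myh6 and Tnnt2.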
